A study of Homo sapiens with 42 samples.

Results

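The change between day 3 and day 6 of exposure to VTP-50469 was followed in NOMO1 cells by comparing the 3 libraries collected at day 6 with the 3 collected at day 3, across every gene of the deposited count table. These 6 libraries are part of 42 in the series. NOMO1 is an established human acute myeloid leukemia line from blood with a rearranged KMT2A gene, and OCI-AML3 is an NPM1c+ leukemia line. Each line received VTP-50469 at 100 nM for 6 or 3 days, VTP-50469 together with selumetinib for 6 or 3 days, selumetinib alone at 100 nM, or the vehicle DMSO for 6 or 3 days, with 3 libraries per group. The compound is written VTP-50469 in the series record and VTP-50649 in the sample labels. The 6 libraries described here come from 1 cell line, for which the labels name no introduced allele. They share the line, the drug and the dose, and differ in the day of collection. The treatment protocol gives 1 day for selumetinib, but the titles of its replicates 2 and 3 name day 3, so that duration is uncertain. How long it was present in the combination cultures is not stated separately.

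VTP-50469 blocks the pocket of menin through which menin holds KMT2A and its fusion proteins on chromatin. In KMT2A-rearranged leukemia that complex keeps a stem-like homeobox programme active, led by HOXA9 and its partner MEIS1, and blast cells are held short of terminal monocyte or granulocyte maturation. Menin inhibitors release that block in responsive cells, so genes of mature phagocytes can follow the loss of the homeobox programme. Selumetinib inhibits the kinase MEK, which passes RAS signals to ERK.

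Library totals were 28157452, 27699304 and 20753956 counts at day 6, against 19440618, 22523644 and 22310443 counts at day 3. The mitochondrial share was 3.14% to 3.88% at day 6 and 4.11% to 4.83% at day 3. All 10 markers of myeloid identity (among them CD33, ANPEP, SPI1 and LYZ) exceeded 5 CPM on average at both days, with a summed level of 11800 to 12700 CPM at day 6 and 7900 to 12500 CPM at day 3. CPM here is the usual depth-scaled count after TMM normalisation, which removes differences in depth and composition but not in transcript length. Levels are therefore set side by side within a gene, not between genes. Because these are bulk samples, fewer cells of a type and less RNA per cell cannot be told apart. The labels do not state whether replicate libraries stem from independent cultures, so the spread between libraries may be technical. The p-values for day 6 over day 3 rest on a spread estimated over all 21 NOMO1 libraries, not over these 6 alone.

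Day 3 replicate 1 stood apart from its group. A chi-square of its counts per gene was 67.1 against replicate 2 and 72.4 against replicate 3, whereas replicates 2 and 3 differed by 6.39 and the day 6 libraries among themselves by 7.32 to 8.58. On the first principal component of the 21 NOMO1 libraries, which held 58.5% of the variance, replicate 1 lay at 0.384, on the day 6 side of replicates 2 and 3 at -10.1 and -11.9. The day 6 libraries lay far beyond, at 46.5 to 48.2. The counts over all genes and several list counts are given with and without this library. Other counts include it.

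**Figure D1:**
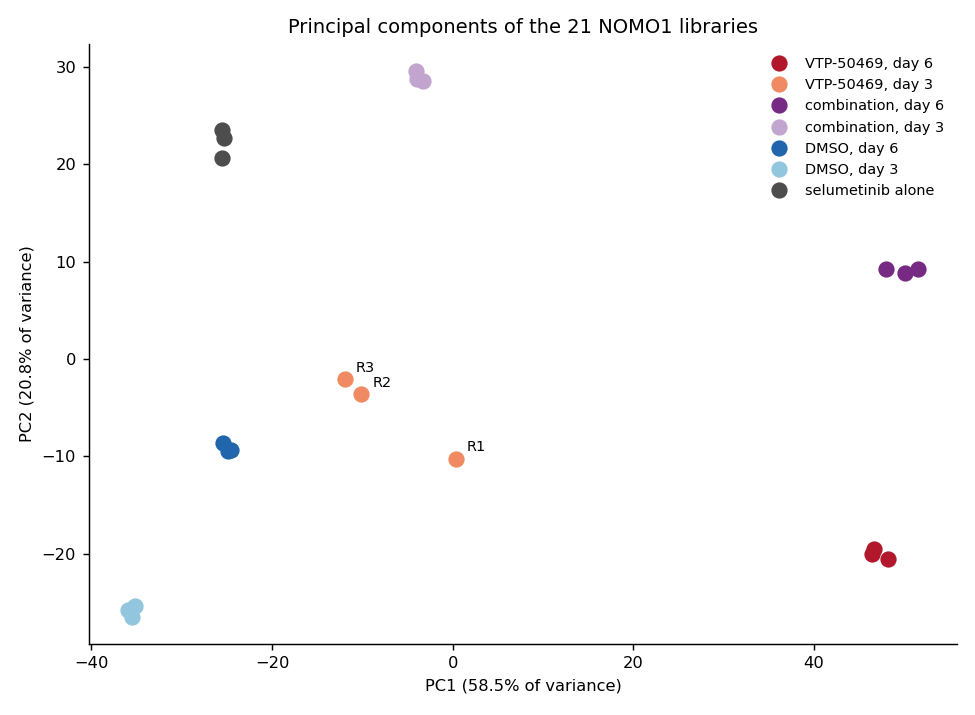
Principal components of the 21 NOMO1 libraries, with PC1 (58.5% of the variance) across and PC2 (20.8%) up the page; each point is 1 library and colours mark the groups. The VTP-50469 day 6 libraries sit at 46.5 to 48.2 on PC1, and day 3 replicate 1 (R1) sits at 0.384, apart from R2 and R3.

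Day 3 replicate 2 carried transcripts that the rest of the line lacked. By a rule written after the values were seen (at least 5 CPM in 1 library and at most 0.5 CPM in each of the other NOMO1 libraries), 20 genes were found in it, with a summed level of 338 CPM, led by the imprinted noncoding RNA H19 at 141 CPM and the basal keratins KRT14 at 25 CPM and KRT5 at 20.4 CPM. Day 6 replicate 3 had 4 such genes, SCGB2A2, TFF3, TFF1 and CRISP3, with 43.6 CPM in sum. The other 19 NOMO1 libraries had 0 such genes. What brought these transcripts into the 2 libraries was not tested, and the falls that rest on them are marked below.

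Of 16562 genes tested, 3376 were higher at day 6 than at day 3 (20.4%) and 3616 were lower (21.8%), by edgeR's quasi-likelihood test with Benjamini-Hochberg adjustment at 0.05. More than 2-fold changes were made by 1001 of the higher and 897 of the lower genes, and more than 8-fold changes by 211 and 129. The median log2 change over all genes was -0.06. The libraries of both days did not overlap for 3955 genes in the higher direction (23.9%) and 4159 in the lower direction (25.1%). Without day 3 replicate 1, 3626 genes were higher and 3801 lower, and these held 3093 and 3211 of the genes called with all 6 libraries. With only the compared groups in the fit, 2867 genes were higher and 2608 lower.

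**Figure D2:**
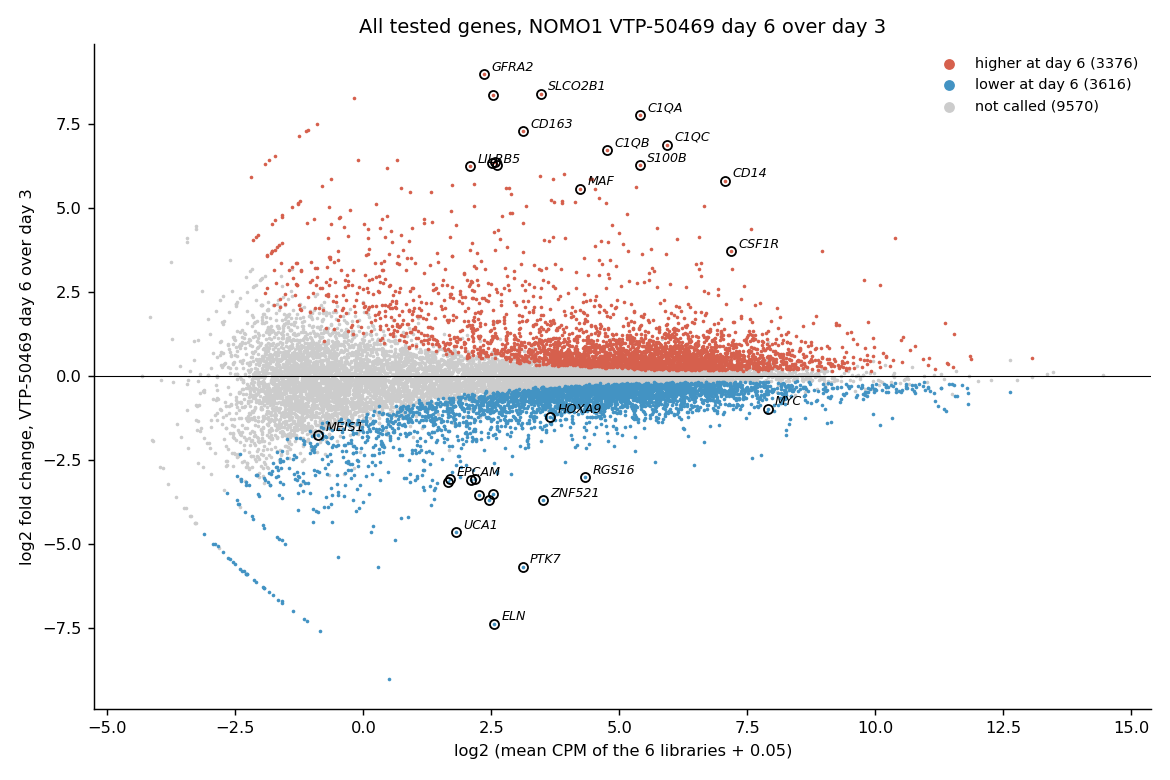
Each point is 1 of the 16562 genes tested, with the log2 mean CPM of the 6 libraries across and the log2 fold change of VTP-50469 day 6 over day 3 up the page. The 3376 genes higher at day 6 are red, the 3616 lower are blue, and circles mark the genes with the largest changes and 6 genes followed by name, some of them labelled.

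Several of the widest rises were of genes that tissue macrophages are known to express. C1QA, C1QB and C1QC lie side by side on chromosome 1 and encode the 3 chains of C1q, the recognition protein of the classical complement pathway, which macrophages secrete. C1QA (chr1:22636506-22639608, plus strand, GRCh38) stood at 73.8, 90.7 and 89.3 CPM in the day 6 libraries, against 0.301, 0.423 and 0.429 CPM in the day 3 libraries. C1QC (chr1:22643630-22648110) stood at 106, 130 and 129 CPM at day 6, against 0.703, 1.44 and 0.902 CPM at day 3. C1QB (chr1:22652762-22661538) stood at 46.2, 54.8 and 59.9 CPM at day 6, against 0.151, 0.592 and 0.73 CPM at day 3. All 3 genes were within 1.5 CPM of silence in every day 3 library and high in every day 6 library. The log2 changes were 7.75 (SE 0.34) for C1QA, 6.88 (SE 0.27) for C1QC and 6.71 (SE 0.43) for C1QB, with edgeR adjusted p-values of 5.28e-13, 6.08e-14 and 4.58e-10.

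CD163, the scavenger receptor that takes up haemoglobin bound to haptoglobin (chr12:7470813-7503893, minus strand), stood at 15.4, 16.1 and 19.9 CPM at day 6, against 0.251, 0.0423 and 0.0429 CPM at day 3. MRC1, the macrophage mannose receptor, stood at 11.3, 11.3 and 13.3 CPM at day 6, against 0.0502, 0.169 and 0.215 CPM at day 3. Both were all but absent at day 3. Their log2 changes were 7.28 (SE 0.44, edgeR adjusted p = 1.23e-12) and 6.28 (SE 0.52, edgeR adjusted p = 2.04e-10). CD163 rested on 7 counts over the 3 day 3 libraries, and its log2 change was 8.49 without day 3 replicate 1, the library that held most of them.

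CD14, the lipopolysaccharide co-receptor that defines classical monocytes (chr5:140631728-140633701, minus strand), stood at 246, 264 and 276 CPM at day 6, against 5.17, 4.48 and 4.51 CPM at day 3. It was 55.6-fold higher at day 6 (log2 5.80, SE 0.16, adjusted p = 7e-19). CSF1R, the receptor for the macrophage growth factor M-CSF, stood at 256, 263 and 295 CPM at day 6, against 24.2, 18.1 and 20.1 CPM at day 3 (log2 3.71, SE 0.11, adjusted p = 7.05e-19). The day 6 libraries lay close together and far above day 3 for both receptors. CD36, a scavenger receptor for oxidised lipids, had 170, 192 and 223 CPM at day 6, against 7.28, 5.66 and 4.77 CPM at day 3 (log2 5.05, SE 0.18, adjusted p = 2.73e-15).

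Among called genes with at least 5 CPM at either day and no overlap, the rest of the 12 widest rises started from low levels at day 3. GFRA2 and GNG11 were all but absent there. GFRA2, a receptor for the neurotrophic factor neurturin, had 7.94, 10.1 and 12.5 CPM at day 6, against 0, 0.0423 and 0 CPM at day 3. With 1 count at day 3 in all, its ratio of day 6 to day 3 was 667, with a 95% counting interval of 119 to 26400. GNG11, a G protein gamma subunit, had 10.4, 14.3 and 9.53 CPM at day 6, against 0, 0.0423 and 0.0429 CPM at day 3, or 2 counts, and its ratio was 386 with an interval of 107 to 3190. These intervals cover counting error only. The organic anion transporter SLCO2B1 rose by 8.39 on the log2 scale (SE 0.49), GASK1B by 6.36, PID1 by 6.34, the calcium-binding protein S100B by 6.26 and the leukocyte immunoglobulin-like receptor LILRB5 by 6.24, with adjusted p-values between 2.86e-14 and 6.27e-07. Without day 3 replicate 1 the change of GASK1B was 7.94, and without replicate 2 that of PID1 was 7.25. S100B had 67.2, 88.9 and 93.8 CPM at day 6, against 1.1, 0.718 and 1.42 CPM at day 3. For these 7 genes, as for all 12, the rule itself required that the days not overlap.

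**Figure D3:**
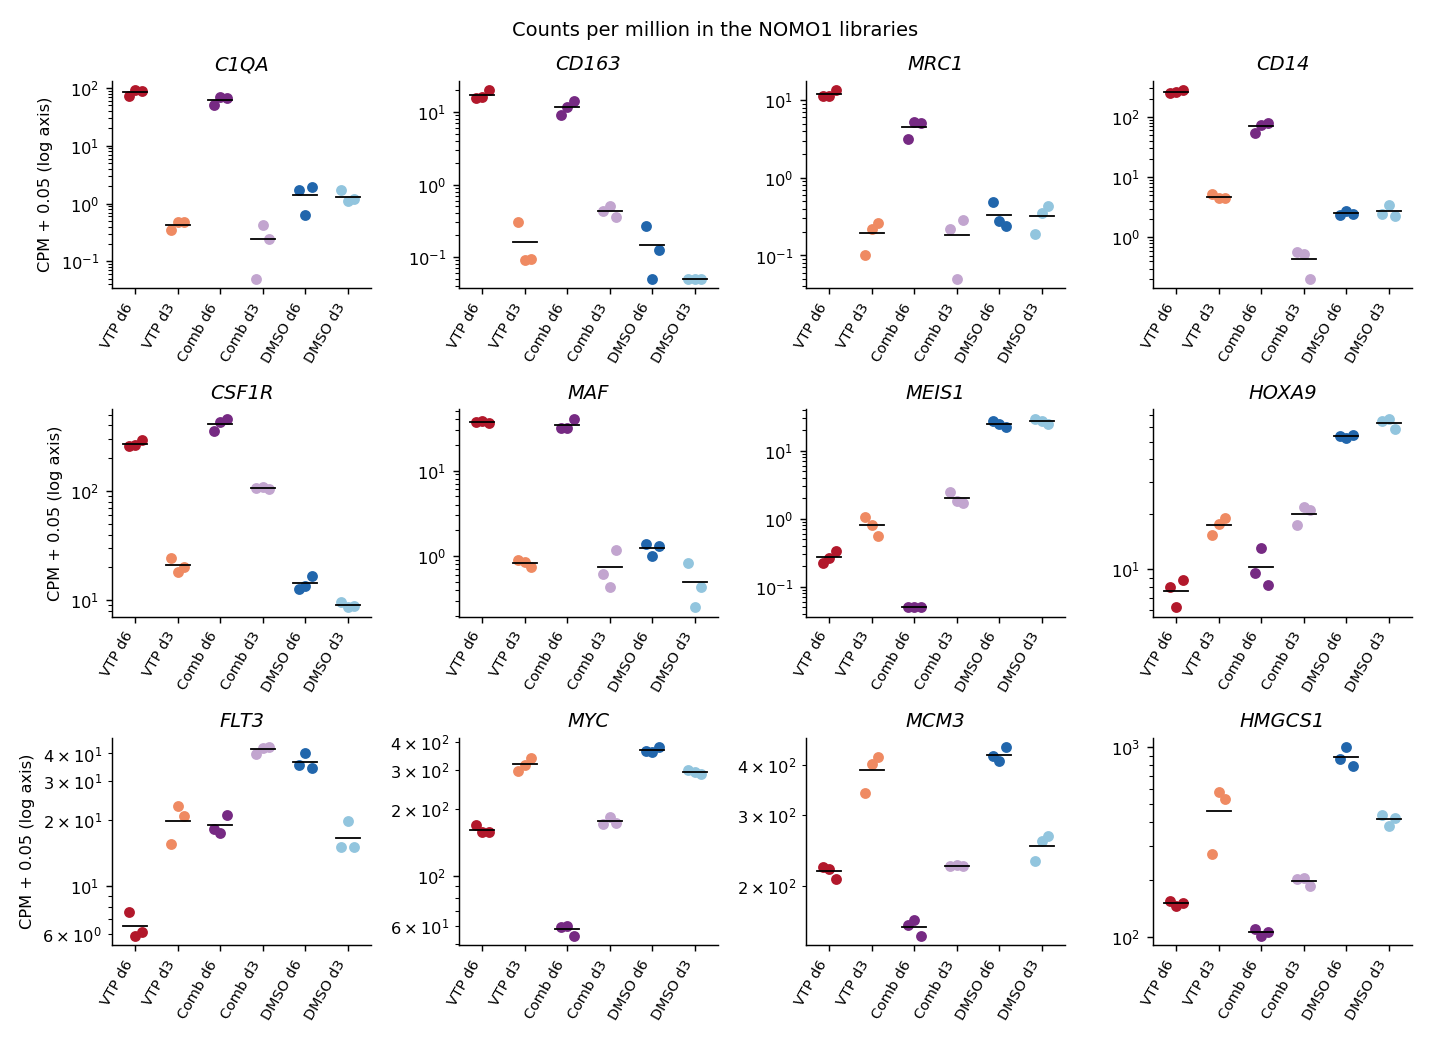
CPM plus 0.05, on a log axis, of 12 genes in the NOMO1 libraries; points are libraries, bars are means of 3, and groups run from VTP-50469 and the combination (Comb) to DMSO, day 6 (d6) left of day 3 (d3). CD14 reads 246 to 276 CPM at VTP-50469 day 6 and 4.48 to 5.17 CPM at day 3, while MEIS1 is below 1.1 CPM at both days.

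Among 39 monocyte and macrophage surface and marker genes, all tested, 35 rose and 2 fell. The median log2 change was 1.78, against -0.06 over all genes. The 2 not called were CD68, at 0.669 CPM at day 6 and 0.518 CPM at day 3, and MNDA (-0.08). The members that rose ranged in role from pattern receptors to integrins: CLEC7A, the beta-glucan receptor Dectin, changed by 3.50, the RNA sensor TLR8 by 3.36, the inhibitory receptor LILRB1 by 3.97, the activating receptor CD300E by 4.02, the anticoagulant receptor THBD by 3.02 and the fibrinogen-like protein FGL2 by 3.18. ITGB2, the shared integrin beta chain of leukocytes, changed by 0.89 and lysozyme, LYZ, by 0.54, each from an already high level. CLEC12A, an inhibitory lectin of myeloid progenitors and monocytes, fell by 0.82 and LY86, the partner of the receptor RP105, fell by 0.48. The integrin ITGAM rose by 0.37 (adjusted p = 0.0151) but had 759, 724 and 736 CPM at day 6, against 763, 493 and 459 CPM at day 3. Its day 3 replicate 1 lay above every day 6 library, and the call was lost when day 3 replicate 2 or 3 was left out.

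Of 24 receptors and opsonins of phagocytosis, 21 rose and 0 fell, with a median log2 change of 2.08. They covered Fc receptors (FCGR3A 2.65, FCGR2A 1.58, and the signalling chain FCER1G 1.70), complement receptors (C3AR1 2.25, C5AR1 2.42, VSIG4 4.40), the apoptotic-cell receptor MERTK (2.62) and the lipid receptor TREM2 (4.06). TYROBP, the adaptor through which TREM2 and other activating receptors signal, had 652, 684 and 655 CPM at day 6, against 215, 209 and 239 CPM at day 3. That rise of 1.59 (SE 0.06, adjusted p = 9.79e-17) was nearly uniform across libraries. FCGR2B, FPR2 and AXL had log2 changes of 1.10, 0.33 and 0.66 and were not called. Without day 3 replicate 1, all 24 were called higher. The summed level of the 24 was 3110 to 3240 CPM at day 6, against 884, 894 and 1610 CPM at day 3.

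Regulators of the monocyte lineage moved selectively. Of 29 transcription factors, 19 rose and 1 fell, with a median of 0.76. MAF, a basic leucine zipper factor of macrophages, had 37.4, 37.5 and 35.8 CPM at day 6, against 0.853, 0.803 and 0.687 CPM at day 3 (log2 5.56, SE 0.26, adjusted p = 1.28e-15). Every day 6 library lay more than 10-fold above every day 3 library. IRF5 (1.28), IRF8 (0.78), ZEB2 (1.03), CEBPB (0.95) and the germinal-centre repressor BCL6 (2.16) also rose, and SPI1, which encodes PU.1, the master regulator of myeloid cells, rose by 0.39 from an already high level. CEBPE, which drives terminal granulocyte maturation, fell by 0.65. CEBPA was at 107 CPM at day 6 and 103 CPM at day 3 (log2 0.05, adjusted p = 0.668), and KLF4, an early monocyte factor, at 12.9 and 11.8 CPM (log2 0.13, adjusted p = 0.747). Without day 3 replicate 1, KLF4 was called higher by 0.62, and 22 of the 29 factors were called higher.

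Promoters of 2 members from the surface list are shown because the core that PU.1 binds, GAGGAA, stands in them. They cover the 250 bases before the RefSeq transcript start in GRCh38.p14, on the gene's strand, and capitals mark the core on either strand, where TTCCTC is the core read on the opposite strand. CD14 is chr5:140633176-140633425 (minus strand) and CD163 is chr12:7503778-7504027 (minus strand).
CD14: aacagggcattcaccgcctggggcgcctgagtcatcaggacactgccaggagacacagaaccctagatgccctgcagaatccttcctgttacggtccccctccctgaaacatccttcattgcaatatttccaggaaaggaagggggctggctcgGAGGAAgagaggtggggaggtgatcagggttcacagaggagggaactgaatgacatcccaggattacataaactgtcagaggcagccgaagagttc
CD163: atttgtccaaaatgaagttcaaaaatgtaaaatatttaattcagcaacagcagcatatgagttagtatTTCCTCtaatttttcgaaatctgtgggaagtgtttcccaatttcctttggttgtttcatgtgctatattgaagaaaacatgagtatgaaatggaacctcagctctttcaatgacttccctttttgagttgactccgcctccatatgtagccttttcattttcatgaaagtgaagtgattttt
GAGGAA was found in 51.9% of the promoters matched for the surface list (14 of 27), in 25% of those of the phagocytic list (5 of 20) and in 23.4% of the 27305 promoters in the table. C1QA and C1QB, which rose by a wider margin than CD14, had 0 matches. The half-site of MAF proteins, TGCTGA, was found in 25.9% of the surface promoters (7 of 27) and 14.1% of all. These are matches of letters, not binding sites.

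Lysosomal genes rose together. Of 26 hydrolases, membrane proteins and proton pump subunits, 24 rose and 0 fell, with a median of 0.87. CTSB, a cysteine protease, had 1490, 1530 and 1610 CPM at day 6, against 266, 183 and 195 CPM at day 3 (log2 2.85, SE 0.10, adjusted p = 6.48e-18). PSAP, the precursor of the saposins that help degrade sphingolipids, had 3860, 4050 and 3890 CPM at day 6, against 1430, 1230 and 1280 CPM at day 3 (log2 1.58, SE 0.06). The days were far apart for both, which were named for their small adjusted p. The summed level of the 26 genes was 13500 to 13800 CPM at day 6 and 5880 to 6130 CPM at day 3. ASAH1, acid ceramidase, changed by 1.60, CTSD by 1.51, the acid lipase LIPA by 1.28 and the glycoprotein GPNMB by 4.09. CTSK (-0.08) was not called. Of the 6 NADPH oxidase subunits, 5 rose, by 0.29 for CYBA up to 1.11 for NCF1, and NCF4 was not called at 0.10. All 6 were called higher without day 3 replicate 1.

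Cytokines and chemokines rose in 12 of 23 tested of 26 listed genes and fell in 4, with a median of 1.02. Without day 3 replicate 1, 15 rose and 3 fell, with a median of 1.84. CCL4, a chemoattractant for monocytes and T cells, had 11.5, 13.8 and 14.7 CPM at day 6, against 0.452, 0.296 and 0.0859 CPM at day 3 (log2 5.59, SE 0.55, adjusted p = 1.06e-08). IL1B, the inflammasome substrate, had 87.5, 79.5 and 87.7 CPM at day 6, against 19, 5.87 and 5.93 CPM at day 3 (log2 3.06, SE 0.34, adjusted p = 1.72e-06). CCL3 had 22.3, 25.7 and 21.8 CPM at day 6, against 1.25, 1.56 and 1.5 CPM at day 3. CXCL16 changed by 2.85, CCL24 by 2.77 and TNF by 1.72. Falls were seen for CXCL10 (-1.90), CCL22 (-1.51), the interleukin-1 antagonist IL1RN (-1.04) and TNFSF13B (-0.39). Of 13 tested lipid-handling genes 4 rose and 2 fell, against 20.4% and 21.8% of all genes. The cholesterol exporter ABCA1 changed by 2.11, the scavenger receptor OLR1 by 3.74, APOE by 0.93 and the receptor NR1H3 by 0.56. MYLIP fell by 0.72 and the HDL receptor SCARB1 by 0.65. Without day 3 replicate 1, OLR1 changed by 4.90, and 6 of the 13 lipid-handling genes were called higher and 4 lower.

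Genes listed for neutrophil granules did not move as a block. Of 23 tested, 9 rose and 4 fell, against 20.4% and 21.8% of all genes, and the median was 0.19. CEACAM8, a surface antigen of granulocytes, had 140, 126 and 130 CPM at day 6, against 4.82, 8.66 and 9.79 CPM at day 3 (log2 4.07, SE 0.17, adjusted p = 1.79e-14). ELANE, neutrophil elastase, changed by 1.30, the gelatinase MMP9 by 1.28, CTSG by 1.14 and the defensin gene DEFA3 by 3.63; DEFA3 and DEFA1B are near-identical copies whose counts may be shared. S100A8 had 2570, 2790 and 2370 CPM at day 6, against 5210, 4290 and 4310 CPM at day 3. It fell by 0.84 on the log2 scale (edgeR adjusted p = 3.45e-08) and its partner S100A9 by 0.46. Both were counted in this list, not among the 39 monocyte and macrophage genes. PRTN3, proteinase 3, fell by 0.97. MPO, the myeloperoxidase of early granules, had 7050, 6670 and 6190 CPM at day 6, against 4700, 8160 and 8760 CPM at day 3, and the days overlapped (log2 -0.12, adjusted p = 0.542). Without day 3 replicate 1, MPO was called lower by 0.34, and 7 granule genes were called lower in place of 4, against 2 without day 3 replicate 3.

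**Figure D4:**
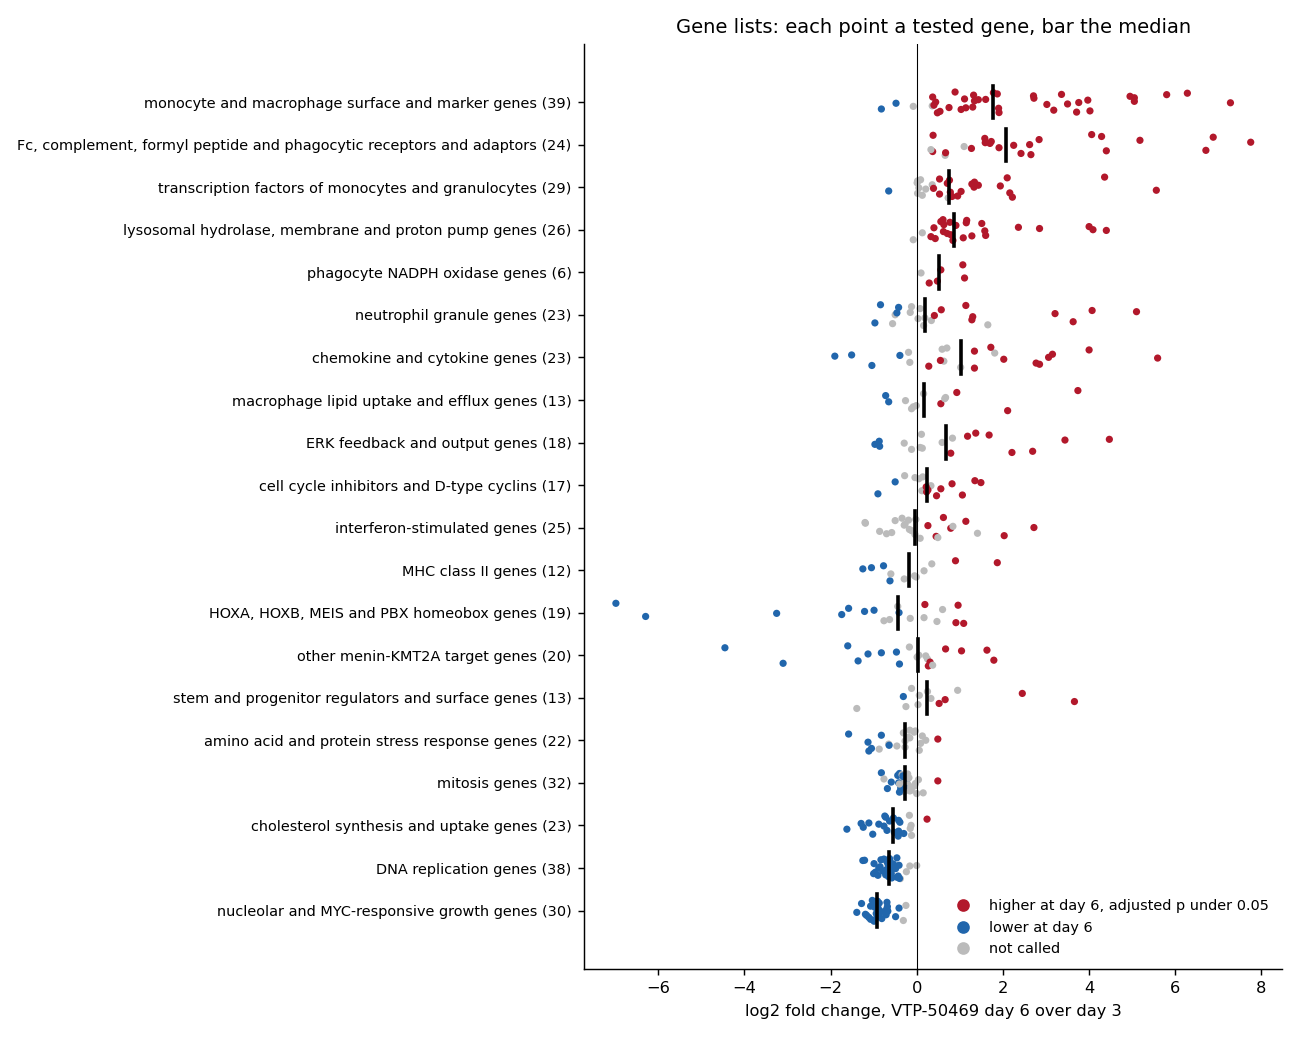
Log2 fold change of VTP-50469 day 6 over day 3 for the tested members of 20 gene lists; each point is a gene, red where it was higher and blue where it was lower at an adjusted p under 0.05, and black bars are list medians. The medians run from 2.08 for phagocytic receptors to -0.91 for nucleolar genes.

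The homeobox genes that menin inhibitors target were already low at day 3 and went lower in part. MEIS1 had 0.176, 0.217 and 0.284 CPM at day 6, against 1, 0.761 and 0.515 CPM at day 3 (log2 -1.74, SE 0.35, adjusted p = 0.000252), in a line whose DMSO libraries averaged 24.6 ± 2.46 CPM at day 6 and 27.1 ± 2.24 CPM at day 3 (SD, n = 3 each). HOXA9 had 7.97, 6.14 and 8.63 CPM at day 6, against 15.4, 17.7 and 19.1 CPM at day 3 (log2 -1.21, SE 0.14, adjusted p = 8.63e-08), with 53.3 ± 0.953 CPM in DMSO at day 6 and 63.4 ± 3.99 CPM in DMSO at day 3. The 3 day 6 libraries lay below the 3 day 3 libraries for both genes. HOXA7 had 0 counts at day 6 and 45 at day 3, which is at least 17.3-fold lower with a floor of 3 counts over the group.

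Of 27 HOXA, HOXB, MEIS and PBX genes, 19 passed the filter on low counts. Of these 19, 8 fell and 4 rose, against 21.8% and 20.4% of all genes, and the median was -0.44. The falling count was 6 without day 3 replicate 1 or day 6 replicate 1. With only the compared groups in the fit, 5 of 17 tested fell. The rising count was 2 without day 3 replicate 2. HOXA10 fell by 0.99, HOXA5 by 1.58 and HOXA3 by 3.25, and HOXA6 had no counts at day 6. HOXA13 rose by 0.96, MEIS2 by 0.91 and PBX2 by 0.19. Other genes that the menin complex is known to keep active moved in both directions: of 20 tested, 8 fell and 6 rose, with a median of 0.03. Over all genes 21.8% fell and 20.4% rose. FLT3, the receptor kinase of progenitors, had 7.51, 5.85 and 6.12 CPM at day 6, against 15.4, 23.1 and 20.6 CPM at day 3 (log2 -1.60, SE 0.14, adjusted p = 5.61e-10). BMI1 (-1.36), IGF2BP2 (-1.13), BCL2 (-0.82), MYB (-0.47) and SOCS2 (-3.10) were lower, while RUNX2 (1.79), CPEB2 (1.04) and LMO2 (0.67) were higher. MEF2C (0.37) and CDK6 (0.21) were not called with all libraries. MEF2C was called higher by 0.79 without day 3 replicate 1, and CDK6 was called higher by 0.33 without day 3 replicate 2. MEN1, which encodes menin, changed by -0.33 (adjusted p = 0.0112), a call lost without day 3 replicate 3 or day 6 replicate 1 or 3. KMT2A rose by 1.18 (adjusted p = 4.88e-06).

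Stem and progenitor genes were not uniformly lower. Of 13 tested of 19, 4 rose and 1 fell, against 20.4% and 21.8% of all genes, and the median was 0.25. KIT, the stem cell factor receptor, had 9.24, 9.06 and 7.49 CPM at day 6, against 0.1, 1.18 and 0.687 CPM at day 3 (log2 3.66, SE 0.38, adjusted p = 1.79e-08). Its change was 4.38 without day 3 replicate 2. HMGA2 (2.45), SPINK2 (0.66) and CD38 (0.52) rose, and MSI2 fell by 0.31. CD34 was below the filter. TERT, the catalytic subunit of telomerase, had 0 counts at day 6 and 185 at day 3, at least 71.1-fold lower, with 1.66, 2.54 and 3.95 CPM in the day 3 libraries.

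The 12 widest falls were taken by the same rule. ZNF521, a corepressor of haematopoietic progenitors, had 2.19, 1.34 and 1.28 CPM at day 6, against 21.7, 20.6 and 20.8 CPM at day 3 (log2 -3.69, SE 0.13, adjusted p = 9.89e-18). PTK7, a pseudokinase of the planar polarity pathway, had 0.353, 0.18 and 0.474 CPM at day 6, against 20.8, 14.4 and 15.5 CPM at day 3 (log2 -5.67, SE 0.25, adjusted p = 6.22e-16). Absence of overlap between the days was a condition of that rule. The long noncoding RNA UCA1 fell by 4.64, CAMKV by 3.68, the BMP antagonist CHRDL1 by 3.53, the cationic amino acid transporter SLC7A2 by 3.50 (by 4.09 without day 6 replicate 3), the thromboxane receptor TBXA2R by 3.16 and CMBL by 3.08. ELN, which encodes elastin, had 0, 0.108 and 0.0948 CPM at day 6, against 2.51, 31.7 and 0.644 CPM at day 3. Its log2 change of -7.37 (adjusted p = 0.000695) was -4.47 without day 3 replicate 2. EPCAM (-3.07) and FGFR3 (-3.06) were likewise highest in that library, at 10.1 and 15.6 CPM, and changed by -2.33 and -2.13 without it; EPCAM changed by -4.19 without day 6 replicate 3. RGS16 had 71.3 CPM in day 3 replicate 1 and 19.8 and 16.5 CPM in replicates 2 and 3; its change of -3.01 was -2.03 without replicate 1. All 4 remained called under every single-library omission.

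Genes of DNA replication fell nearly as one. Of 38 tested, 34 fell and 0 rose, with a median of -0.65. Without day 3 replicate 1, 37 fell. MCM3, a subunit of the replicative helicase, had 223, 221 and 209 CPM at day 6, against 341, 402 and 417 CPM at day 3 (log2 -0.83, SE 0.08, adjusted p = 1.18e-09). MCM6, another helicase subunit, had 138, 140 and 135 CPM at day 6, against 192, 228 and 235 CPM at day 3 (log2 -0.67, SE 0.07, adjusted p = 1.45e-08). The days did not overlap for either gene, as for 25.1% of all genes in the lower direction, though the shift was under 2-fold for both. Both were named for their small adjusted p. CDC45 fell by 1.25, TYMS by 1.21 and CDC25A by 1.00. ORC6, CCNE1, CCNE2 and E2F1 were not called, at -0.16, -0.38, 0.00 and -0.24.

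Promoters of MCM3 (chr6:52284743-52284992, minus strand) and MCM6 (chr2:135876444-135876693, minus strand) are shown because they hold elements that E2F factors, the regulators of replication genes, are known to bind. Capitals mark TTTCCCGC, TTTGGCGC or TTTCGCGC on either strand; in MCM6 the 4 matches overlap in pairs, 1 on each strand.
MCM3: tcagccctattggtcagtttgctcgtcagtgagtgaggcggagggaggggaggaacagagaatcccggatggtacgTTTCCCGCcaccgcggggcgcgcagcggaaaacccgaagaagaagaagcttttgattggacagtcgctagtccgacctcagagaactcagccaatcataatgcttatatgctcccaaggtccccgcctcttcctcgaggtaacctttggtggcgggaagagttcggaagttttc
MCM6: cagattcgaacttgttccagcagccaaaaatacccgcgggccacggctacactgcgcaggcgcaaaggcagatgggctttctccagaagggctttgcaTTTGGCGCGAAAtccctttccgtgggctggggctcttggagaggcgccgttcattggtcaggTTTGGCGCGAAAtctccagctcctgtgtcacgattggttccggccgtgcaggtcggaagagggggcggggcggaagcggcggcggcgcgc
Any of those 3 words was found in 42.4% of the promoters matched for the replication list (14 of 33) and in 2.38% of all promoters in the table.

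Mitotic genes changed less. Of 32 tested, 13 fell and 1 rose, against 21.8% and 20.4% of all genes, with a median of -0.28. MAD2L1 of the spindle checkpoint fell by 0.82, the kinase AURKB by 0.68, TTK by 0.59 and the motor KIF11 by 0.42. MKI67, which encodes the proliferation antigen Ki-67, was higher, at 239, 167 and 197 CPM at day 6, against 154, 141 and 134 CPM at day 3 (log2 0.49, adjusted p = 0.00027). The count of falling mitotic genes varied with the libraries used: it was 26 without day 3 replicate 1, 7 without day 3 replicate 2 or 3, and 8, 10 and 9 without day 6 replicate 1, 2 and 3 in turn. Of 17 tested regulators that slow the cycle or meet it at its restriction point, 9 rose and 2 fell. Over all genes 20.4% rose and 21.8% fell. CDKN1A, which encodes the inhibitor p21, had 283, 283 and 273 CPM at day 6, against 152, 86.4 and 92.6 CPM at day 3 (log2 1.35, SE 0.14, adjusted p = 1.25e-07). RB1 changed by 1.06, CDKN1B by 0.56 and BTG2 by 1.49, while the kinase CDK4 fell by 0.90.

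MYC and the nucleolar genes it is known to drive were lower. MYC had 169, 157 and 158 CPM at day 6, against 297, 315 and 337 CPM at day 3 (log2 -0.97, SE 0.07, adjusted p = 3.39e-12), so each day 6 library had less than any day 3 library. Of 30 nucleolar and ribosome biogenesis genes, 28 fell and 0 rose, with a median of -0.91. NOP58, a core protein of box C/D small nucleolar particles, had 44.2, 38 and 41.1 CPM at day 6, against 89.8, 84.7 and 102 CPM at day 3 (log2 -1.16, SE 0.09). FBL (-0.87), NCL (-0.70), NPM1 (-0.69), NOLC1 (-1.01) and DKC1 (-0.91) fell within a narrow range. POLR1A (-0.25) and NOP2 (-0.31) were not called.

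Sterol synthesis fell along most of its steps. Of 23 tested of 24 genes, 18 fell and 1 rose, with a median of -0.54. HMGCS1, an early enzyme of the pathway, had 154, 145 and 151 CPM at day 6, against 271, 578 and 531 CPM at day 3 (log2 -1.62, SE 0.19, adjusted p = 3.3e-06). LSS, lanosterol synthase, had 36.5, 28 and 32.1 CPM at day 6, against 63.1, 87.1 and 77.3 CPM at day 3 (log2 -1.24, SE 0.11, adjusted p = 3.78e-10). TMEM97, a sterol-responsive membrane protein, had 22.6, 24 and 21.4 CPM at day 6, against 53, 59 and 54.4 CPM at day 3 (log2 -1.29, SE 0.10, adjusted p = 2.29e-11). The days were separate for these 3 genes, as they were for 25.1% of all genes in the lower direction. LSS and TMEM97 were named for their small adjusted p and HMGCS1 as an example, so the separation is only a description. The promoters of LSS (chr21:46228775-46229024, minus strand) and TMEM97 (chr17:28318950-28319199, plus strand) are shown because the CCAAT box, bound by NF-Y, was frequent in the list; capitals mark CCAAT or, on the opposite strand, ATTGG.
LSS: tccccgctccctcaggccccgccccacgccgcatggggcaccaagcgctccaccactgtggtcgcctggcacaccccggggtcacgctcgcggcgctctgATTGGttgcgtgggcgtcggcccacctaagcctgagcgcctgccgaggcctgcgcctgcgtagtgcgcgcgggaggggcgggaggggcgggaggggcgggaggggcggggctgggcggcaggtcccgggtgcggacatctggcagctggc
TMEM97: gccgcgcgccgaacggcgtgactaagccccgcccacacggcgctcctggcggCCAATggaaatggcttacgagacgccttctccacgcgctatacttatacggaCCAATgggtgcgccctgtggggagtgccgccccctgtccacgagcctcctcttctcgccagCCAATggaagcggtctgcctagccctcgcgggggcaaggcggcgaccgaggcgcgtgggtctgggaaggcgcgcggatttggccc
CCAAT was found in 83.3% of the matched sterol promoters (15 of 18), in 57.6% of those of replication genes (19 of 33) and in 33% of all. The sterol element TCACCCCAC was found in 1 of 18 and in 0.348% of all.

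Outputs of ERK signalling moved in both directions. Of 18 tested, 8 rose and 3 fell, against 20.4% and 21.8% of all genes, with a median of 0.69. The rising count was 6 without day 3 replicate 2 or 3 or day 6 replicate 3. Leaving out day 3 replicate 3 gave a median of 0.38. The ERK phosphatase DUSP6 had 187, 192 and 198 CPM at day 6, against 77.4, 49.7 and 52.6 CPM at day 3 (log2 1.68, SE 0.14, adjusted p = 1.5e-09). DUSP4 (3.44), SPRED1 (4.47), ETV5 (1.37) and CCND1 (0.79) rose with it, and ETV4 (-0.86), FOSL1 (-0.87) and MYC fell.

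Antigen presentation by class II molecules did not follow the macrophage genes. HLA-DRA had 98.8, 113 and 104 CPM at day 6, against 229, 257 and 263 CPM at day 3 (log2 -1.25, SE 0.09, adjusted p = 1.47e-11). The invariant chain CD74 fell by 0.62, the class II transactivator CIITA by 1.05 and HLA-DPB1 by 0.77. HLA-DMB, which loads peptides, rose by 1.87 and HLA-DQB1 by 0.90. Of 12 tested genes 4 fell and 2 rose, against 21.8% and 20.4% of all genes, with a median of -0.17. That median was 0.23 without day 3 replicate 1. HLA-DQB1 had an adjusted p of 0.0495, and 1 member in place of 2 was called higher in 8 alternatives, which include leaving out day 3 replicate 2 or 3 or day 6 replicate 1 or 3. Of 25 tested interferon-stimulated genes 7 rose and 0 fell, against 20.4% and 21.8% of all genes, and the median was -0.04. The falling count was 2 without day 3 replicate 1 or day 6 replicate 1, and 1 without day 6 replicate 2. Among those that rose were IFI6 (0.79), IFITM3 (1.14) and OAS3 (2.03, or 2.77 without day 3 replicate 1).

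Counts for amino acid and stress response genes varied with the libraries used. With all 6 libraries, 6 of 22 fell and 1, the chaperone HSPA5, rose by 0.49. Over all genes 21.8% fell and 20.4% rose. PHGDH, the first enzyme of serine synthesis, had 40.6, 31.7 and 43.5 CPM at day 6, against 203, 69.2 and 72.7 CPM at day 3 (log2 -1.58, SE 0.31, adjusted p = 0.000808). SHMT2 and PSAT1 were also highest in day 3 replicate 1, at 530 and 171 CPM, and fell by 0.64 and 1.13. Without that library, 5 of the 22 were higher and 3 lower, the median was 0.16 in place of -0.27, PHGDH changed by -0.88, SHMT2 by -0.24 and the PSAT1 call was lost. The count of falling members was 9 without day 3 replicate 2 or 3, 3 without day 6 replicate 1 and 2 without day 6 replicate 2, and the last omission also ended the PSAT1 call (adjusted p = 0.0578).

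Markers of other blood and tissue cells were read beside these results. Of 15 eosinophil, basophil and mast cell genes the summed level was 7180 to 7620 CPM at day 6 and 4920 to 6450 CPM at day 3, with FCER1A at 0 at both days. EPX, eosinophil peroxidase, had 4560, 4410 and 4270 CPM at day 6, against 2930, 2780 and 3090 CPM at day 3 (log2 0.59, SE 0.09, adjusted p = 2.93e-06), RNASE3 rose by 1.22 and CLC fell by 0.41. The 10 epithelial and stromal markers summed to 77.4 to 103 CPM at day 6 and 231 to 281 CPM at day 3, with COL3A1 and DCN at 0. KRT8, a simple-epithelium keratin and the highest of the list at day 3, had 26, 20.4 and 26.6 CPM at day 6, against 141, 157 and 156 CPM at day 3 (log2 -2.64, SE 0.09, adjusted p = 7.73e-18). KRT8 was even across the day 3 libraries, unlike the transcripts of replicate 2. Dendritic cell markers, 12 in all, summed to 91.9 to 93.8 CPM at day 6 and 87.9 to 144 CPM at day 3; CLEC10A rose by 5.42 (by 6.07 without day 3 replicate 2) and TCF4 by 1.33, and BATF3 fell by 2.38 (by 1.11 without day 3 replicate 1). The 12 erythroid genes summed to 25.7 to 30 CPM at day 6 and 19.1 to 32.9 CPM at day 3 with 9 members at 0 at each day. The 8 megakaryocyte genes summed to 20 to 23.4 CPM at day 6 and 21.4 to 22.6 CPM at day 3, and the 8 B cell genes to 26.3 to 29 CPM and 28.8 to 34.9 CPM at those days. CD207 was at 0 at day 6, and the megakaryocyte gene PF4 and the B cell genes MS4A1 and PAX5 were at 0 at both. The 10 T and NK cell genes summed to 195 to 198 CPM at day 6 and 167 to 212 CPM at day 3, with NKG7 highest and CD2 at 0 at day 6; CD3D fell by 1.20, to 13.3, 17.8 and 16.4 CPM at day 6 against 33.8, 39 and 35.8 CPM at day 3. The part of these markers in the other results was not tested.

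In DMSO cells 4639 of the same 16562 genes were higher (28%) and 3787 lower (22.9%) at day 6, or 50.9% in either direction. The DMSO day 3 libraries carried 17.6% to 18% mitochondrial counts, against 2.73% to 3.68% in the DMSO day 6 libraries, and the part of this difference in the comparison with DMSO was not tested. Day and any difference in collection or preparation cannot be told apart. The change under VTP-50469 was therefore set against that in DMSO in the same fit. The difference of the changes was positive for 3267 genes (19.7%) and negative for 4212 (25.4%). With scaling by library totals alone the count was 1768 positive and 6716 negative, and the median over all genes moved to -0.45 from -0.06. By the named-gene rule, the widest positive differences were GFRA2 (14.85), GNG11 (10.74), SLCO2B1 (8.70) and C1QC (7.87, SE 0.39, adjusted p = 2.6e-12), and the widest negative were ELN (-9.19), TERT (-8.81), HOXA7 (-8.80) and CLEC2A (-6.63), in log2. GFRA2, TERT, HOXA7 and CLEC2A each had a group at 0 counts, so their sizes depend on the fit and are no measure of fold. ELN averaged 0.534 CPM or less in 3 of the 4 groups, and its difference ran from -14.02 without DMSO day 3 replicate 1 to -6.37 without VTP-50469 day 3 replicate 2, so its size is no measure either. The SLCO2B1 difference ran from 7.07 to 9.24 over the single-library omissions. C1QC averaged 122 ± 13.2 CPM at VTP-50469 day 6 and 1.01 ± 0.38 CPM at VTP-50469 day 3, against 2.08 ± 0.55 CPM at DMSO day 6 and 4.13 ± 1.79 CPM at DMSO day 3 (SD, n = 3 each).

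The main lists differed from DMSO as follows. The difference was positive for 28 of 39 surface genes and negative for 2, positive for 19 of 24 phagocytic genes and negative for 2, and positive for 23 of 26 lysosomal genes and negative for 3. It was negative for 34 of 38 replication genes, 20 of 32 mitotic genes, 20 of 30 nucleolar genes and 19 of 23 sterol genes. In DMSO alone, 23 of the replication genes and 15 of the sterol genes were higher at day 6 than at day 3. So were 18 of the 39 surface genes, 4 of the 24 phagocytic genes and 10 of the 26 lysosomal genes, against 28% of all genes. In DMSO 7 surface, 5 phagocytic and 5 lysosomal genes were lower at day 6, against 22.9% of all genes. For the targets of menin the difference was negative for 11 of 20 and positive for 4.

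In the combination with selumetinib MEIS1 had no counts at day 6 and averaged 1.94 ± 0.393 CPM at day 3, CD14 averaged 69.6 ± 13.7 CPM at day 6 and 0.386 ± 0.2 CPM at day 3, and MYC averaged 57.8 ± 3.15 CPM at day 6 and 176 ± 7.22 CPM at day 3 (SD, n = 3 each). In that arm 3482 genes were higher (21%) and 3175 lower (19.2%) at day 6 than at day 3, or 40.2% in either direction. The difference between the arms is signed, so a deeper fall under VTP-50469 alone counts as negative. The difference of the changes, VTP-50469 alone less the combination, was positive for 290 genes (1.75%) and negative for 334 (2.02%), or 3.77% in all. These counts were 914 and 840 without VTP-50469 day 3 replicate 1, and 371 and 247 with scaling by library totals alone. Omission of any other single library gave 187 to 288 and 165 to 318, and the negative count dropped by more than 1.5 times without any combination day 3 library, combination day 6 replicate 1 or 2, or VTP-50469 day 6 replicate 1 or 3. Positive differences were widest for CCDC162P (2.96), the flippase ATP9A (2.91), CD163 (2.37, adjusted p = 0.0486) and TXNIP (2.28, adjusted p = 6.1e-10). The CD163 difference ran from 1.99 without VTP-50469 day 3 replicate 2 to 3.59 without replicate 1, and its call was lost in 10 of 12 single-library omissions (adjusted p up to 0.136). TXNIP, which binds thioredoxin and limits glucose uptake, had 939, 923 and 928 CPM at VTP-50469 day 6 and 61.4, 74.9 and 75.3 CPM at VTP-50469 day 3, against 1780 ± 20.2 CPM and 657 ± 9.58 CPM in the combination at day 6 and day 3. Its level was thus higher in the combination at both days, and its change over time smaller.

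Negative differences from the combination were widest for GPNMB (-3.29), the stress gene DDIT4 (-3.24, adjusted p = 0.0298), ZMYND15 (-3.19, adjusted p = 0.0331) and the eosinophil chemoattractant CCL24 (-2.83). GPNMB averaged 29 ± 2.02 CPM at VTP-50469 day 6 and 1.73 ± 0.79 CPM at day 3, against 127 ± 15.6 CPM and 0.759 ± 0.266 CPM in the combination at those days. CCL24 averaged 9.32 ± 0.411 CPM at VTP-50469 day 6 and 1.38 ± 0.328 CPM at day 3, against 83 ± 17.9 CPM and 1.71 ± 0.182 CPM in the combination. DDIT4 had 59.1 CPM in VTP-50469 day 3 replicate 1 and 13.5 and 10.9 CPM in replicates 2 and 3, and its difference was -2.05 without replicate 1. Its call was lost in 8 single-library omissions and that of ZMYND15 in 7. Of the lists, 12 of 38 replication genes, 6 of 32 mitotic genes, 5 of 22 stress genes and 5 of 23 cytokine genes differed negatively and none positively; of the surface genes 9 differed positively and 1 negatively. For 23 of 24 phagocytic genes, 23 of 26 lysosomal genes and 27 of 30 nucleolar genes the difference was not called. Over all genes tested 3.77% were called, so most members of any list would be uncalled.

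In OCI-AML3 cells under VTP-50469, 1455 of the 18707 genes tested in a fit of both lines were higher at day 6 than at day 3 (7.78%) and 1551 were lower (8.29%). Day 3 replicate 2 of that group stood apart, with a chi-square per gene of 31.9 against replicate 1 and 30.7 against replicate 3. Replicates 1 and 3 differed by 4.32. The part of that library in the counts of OCI-AML3 alone was not tested. The signed difference of the changes, NOMO1 less OCI-AML3, was positive for 2478 genes (13.2%) and negative for 2248 (12%). Without OCI-AML3 VTP-50469 day 3 replicate 2 these counts were 2465 and 2277. S100B (10.47), MRC1 (10.03), CCL4 (8.17) and ADCY1 (7.84) had the widest positive differences. S100B, MRC1 and CCL4 had no counts in OCI-AML3 at day 6, so their sizes are no measure of fold. The CCL4 call was lost without OCI-AML3 day 3 replicate 1 (5.60, adjusted p = 1) and the S100B call without OCI-AML3 day 3 replicate 2 (8.52, adjusted p = 0.0885). ADCY1, an adenylate cyclase, had 20, 19.8 and 24.3 CPM at day 6 in NOMO1, against 0.201, 0.634 and 0.172 CPM at day 3, while in OCI-AML3 it averaged 0.453 ± 0.267 CPM at day 6 and 1.62 ± 0.915 CPM at day 3. The widest negative differences, KRT5 (-16.06), H19 (-16.00), S100A2 (-12.54) and KRT7 (-12.06), owed much of their size to NOMO1 day 3 replicate 2, where KRT7 had 14.8 CPM against 0.552 and 0.172 CPM in replicates 1 and 3. Without that library the differences were -5.71 for KRT5 (adjusted p = 1), -7.11 for H19 (adjusted p = 0.0179), -5.90 for S100A2 (adjusted p = 0.16) and -8.21 for KRT7 (adjusted p = 0.00272). In OCI-AML3, H19 averaged 8.01 ± 0.116 CPM at day 6 and 1.09 ± 0.892 CPM at day 3, and KRT5 averaged 14 ± 12.2 CPM at day 6 and 0.26 ± 0.341 CPM at day 3 (SD, n = 3 each).

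The lines differed by gene group. The difference was positive for 21 of 39 surface genes and negative for 2, and positive for 17 of 26 lysosomal genes and negative for 2. It was negative for 24 of 38 replication genes, 21 of 30 nucleolar genes and 18 of 23 sterol genes. All 28 interferon-stimulated genes were tested in the fit of both lines and were higher at day 6 in OCI-AML3, with a median of 3.19, and the difference was negative for 22 of them. The class II genes were tested in full (13), 8 were higher in OCI-AML3, and the difference was negative for 8.

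**Figure D5:**
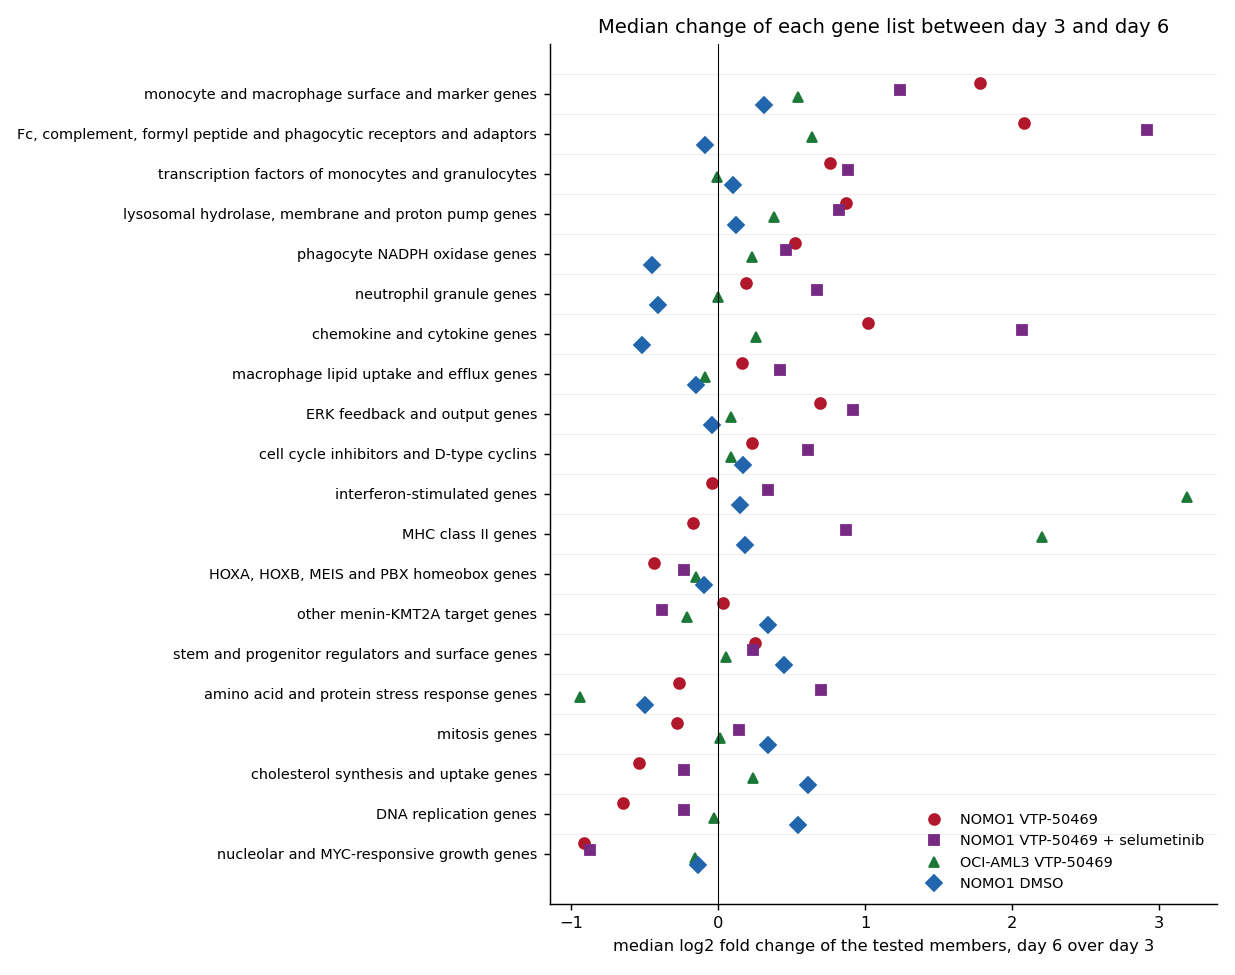
Median log2 fold change of day 6 over day 3 for 20 gene lists (rows) in NOMO1 under VTP-50469 (red circles), NOMO1 under the combination (purple squares), OCI-AML3 under VTP-50469 (green triangles) and NOMO1 in DMSO (blue diamonds). In NOMO1 under VTP-50469 the phagocytic receptors are at 2.08, against -0.09 in DMSO, while the interferon-stimulated genes are at -0.04 in NOMO1, against 3.19 in OCI-AML3.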

How the data were processed

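RNA from 42 samples was sequenced as poly(A)-selected, unstranded libraries with paired reads of 150 nt, per the labels' protocols. Raw counts per gene, not normalized, were deposited by the authors in 1 table. The submitters' processing notes name FastQC 0.11.9, MultiQC 1.14, STAR 2.11a, featureCounts in Subread 2.0.6, DESeq2 1.44.0 and build hg38. Of 58870 rows, 58851 with a symbol were used; the other 19 held at most 0.000244% of a library's counts. Without strand, overlapping antisense genes cannot be told apart. In addition, 3 columns were not used, since they matched no single sample. Positions come from GENCODE 29, whose symbols matched 58578 rows; the table's header names release 30.

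Counts were fitted with edgeR 4.0.16 in R 4.3.3 (TMM scaling, filterByExpr, robust quasi-likelihood with 1 mean per group) over the 21 NOMO1 libraries, or all 42 for the line difference, with Benjamini-Hochberg adjustment over all genes tested. Differences of changes were contrasts in the same fit. Named genes were the 12 widest called rises and falls with at least 5 CPM and no overlap, the 4 smallest adjusted p per list, the 4 widest each way per difference of changes, and 28 followed genes. The members and lists were chosen with earlier results of these data known, so a list's direction is a description. Further list members are named as examples, chosen after their values were seen, and some genes that the rule names are not reported here. Promoters came from RefSeq's GRCh38.p14 table; 5 motifs were searched on both strands, overlapping matches included. Scripts were tested on simulated data. Alternatives were DESeq2 1.42.0, other scaling and filters, removal of mitochondrial genes, a fit of the compared groups alone, a replicate block and omission of each library.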

Additional observations from a re-analysis of the deposited data

Results flagged for a closer look

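Changes over time under VTP-50469 that differed from the change over the same days elsewhere were drawn out by the test of that difference in the fit of all groups.

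Against DMSO, 3267 genes differed positively and 4212 negatively. The named ones were GFRA2 at 14.85, GNG11 at 10.74, SLCO2B1 at 8.70 and C1QC at 7.87, and ELN at -9.19, TERT at -8.81, HOXA7 at -8.80 and CLEC2A at -6.63, all log2 differences of changes.

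Against the combination, 290 genes differed positively and 334 negatively. The named ones were CCDC162P at 2.96, ATP9A at 2.91, CD163 at 2.37 and TXNIP at 2.28, and GPNMB at -3.29, DDIT4 at -3.24, ZMYND15 at -3.19 and CCL24 at -2.83. The calls of CD163, DDIT4 and ZMYND15 were lost in 11, 10 and 7 alternatives.

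Between NOMO1 and OCI-AML3, 2478 genes differed positively and 2248 negatively. The named ones were S100B at 10.47, MRC1 at 10.03, CCL4 at 8.17 and ADCY1 at 7.84, and KRT5 at -16.06, H19 at -16.00, S100A2 at -12.54 and KRT7 at -12.06. The last 4 were smaller without NOMO1 VTP-50469 day 3 replicate 2, at -5.71 for KRT5, -7.11 for H19, -5.90 for S100A2 and -8.21 for KRT7, and KRT5 and S100A2 were then not called. CCL4 and S100B were not called without 1 OCI-AML3 day 3 library each, replicate 1 for CCL4 (5.60) and replicate 2 for S100B (8.52).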

How the results depend on the processing

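Day 6 over day 3 under VTP-50469 gave 2971 to 3626 higher and 2999 to 3801 lower genes when 1 library was left out, and between 2867 and 3750 higher and 2608 and 4027 lower under the other alternatives. Against DMSO the omission ranges were 2819 to 3502 positive and 4105 to 4608 negative; library totals alone gave 1768 and 6716, with 20.8% positive in place of 43.7%. Against the combination the ranges were 187 to 914 and 165 to 840, with DESeq2 giving 499 positive and a fit of the compared groups 210 negative, and the positive share was 60% with library totals in place of 46.5%. Between lines the ranges were 2174 to 2737 and 1811 to 2570. The cause of these shifts was not tested. Same-numbered libraries of both days showed little shared deviation from their group means (correlations 0.0333, 0.0124 and -0.0761). That cannot settle whether replicate numbers mark pairs, which the labels do not state. With the replicate block 3352 genes were higher and 3543 lower.

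Of 2450 values for named genes under alternatives, 2374 kept direction and call, 63 lost the call, 8 gained it and 5 turned round. The last were values of genes not called with all libraries: KLF4 (-0.09 to 0.62 over the omissions, with -0.04 and -0.02 also below 0), CEBPA (-0.01 to 0.11) and MPO (-0.34 to 0.06). The difference from the combination lost its call in 11 alternatives for CD163, 10 for DDIT4 and 7 for ZMYND15, and the difference between lines in 10 for KRT5 and 1 each for CCL4, S100B, S100A2, H19 and KRT7; the block ended the calls of CD163, DDIT4 and KRT5 (adjusted p = 0.064, 0.0531 and 0.104). With day 3 counts of 1 to 7, depth limits the folds of GFRA2, GNG11, SLCO2B1, CD163 and LILRB5.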
